A study of Mus musculus with 6 samples.

Results

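*Cyth3* encodes cytohesin 3, also called GRP1 or ARNO3, and lies on the plus strand of chromosome 5 (mm10 chr5:143622447-143710250, 87.8 kb). A differentially methylated region (DMR) is a run of neighbouring CpGs whose mean methylation differed between infant and young adult lung endothelial cells (EC). Of the 18333 DMRs listed by the authors, 50 had their midpoint inside the gene body of *Cyth3*, and all 50 lost methylation between infant and young adult EC. The gene was picked for this cluster of losses, so the number and direction of its DMRs are a description and were not tested. Among all listed DMRs, 45.9% lost methylation.

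EC were sorted from lungs of C57BL/6N mice, described in the study's methods as female, with 3 samples of infants aged 8 to 10 days, 3 of young adults aged 8 to 12 weeks, and no genetic or drug treatment in either group. Viable cells positive for CD31 and CD34 and negative for PTPRC, LYVE1, LY76 and PDPN were collected, and their DNA was examined by T-WGBS (tagmentation-based whole-genome bisulfite sequencing), in which a transposase fragments the DNA and bisulfite converts unmethylated cytosines. A region list holds no expression values, so the endothelial markers could not be checked in these data. The list gives a mean methylation of each age group for each DMR, without the values of single samples. No error, n-based interval or test between the ages can therefore be given, and the read coverage behind each mean is unknown. The authors selected DMRs by testing these samples, so the sizes of the differences carry that selection. A shift in the mix of cells within the sort and a shift within each cell cannot be told apart.

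Cytohesins are guanine nucleotide exchange factors. Their Sec7 domain loads small GTPases of the Arf family, including Arf6, with GTP, and their pleckstrin homology domain brings them to membranes where phosphoinositide 3-kinase has been active. Arf6 takes part in endosomal recycling, integrin traffic and the remodeling of cortical actin, and in EC it has been linked to the turnover of junctional cadherin. Methylation of CpGs in promoters often goes along with silencing, whereas low methylation inside introns is a frequent feature of enhancers.

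The sequences of 7 intervals follow because they hold the extremes of the cluster: the DMR with the largest loss, the first and the last by position, the loss next to the smallest, the DMR closest to the internal transcription start, one just ahead of exon 2, and the most CpG-dense 300 bases of the widest DMR. All are from the plus strand of the mm10 reference, 5′ to 3′, and capitals mark CpGs.
Largest loss, chr5:143678133-143678207: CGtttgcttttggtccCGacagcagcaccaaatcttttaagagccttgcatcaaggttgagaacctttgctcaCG
First DMR and smallest loss, chr5:143625561-143625604: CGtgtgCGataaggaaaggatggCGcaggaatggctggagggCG
Last DMR, chr5:143701175-143701307: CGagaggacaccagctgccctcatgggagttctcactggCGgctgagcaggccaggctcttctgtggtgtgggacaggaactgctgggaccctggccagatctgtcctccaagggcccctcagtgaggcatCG
Next to the smallest loss, chr5:143673185-143673354: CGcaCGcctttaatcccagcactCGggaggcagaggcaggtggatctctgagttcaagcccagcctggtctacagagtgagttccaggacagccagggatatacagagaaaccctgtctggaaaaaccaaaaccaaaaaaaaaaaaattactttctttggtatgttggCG
Closest to the internal start, chr5:143651894-143651932: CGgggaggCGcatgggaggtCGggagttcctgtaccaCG
Ahead of exon 2, chr5:143684300-143684346: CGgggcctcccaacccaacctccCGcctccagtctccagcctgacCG
Densest 300 bases of the widest DMR, chr5:143631719-143632018: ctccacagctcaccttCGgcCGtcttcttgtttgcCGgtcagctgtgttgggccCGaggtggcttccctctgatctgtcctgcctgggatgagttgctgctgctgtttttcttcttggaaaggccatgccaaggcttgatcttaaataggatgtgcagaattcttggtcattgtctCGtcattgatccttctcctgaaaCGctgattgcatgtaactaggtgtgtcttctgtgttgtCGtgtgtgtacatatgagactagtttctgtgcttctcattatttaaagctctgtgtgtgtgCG

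The 75-bp DMR with the largest loss held 3 CpGs, which fell from an infant mean of 65.9% to a young adult mean of 7.23%. The 44-bp DMR that came first held 4 CpGs (9.09 per 100 bp), and it went from 22.5% to 0.379%. This was the smallest difference of the cluster, -22.1 percentage points, starting from the lowest infant level of all 50 DMRs. In the next smallest, the 170-bp DMR went from 92.8% to 69.95%, the highest young adult level in *Cyth3*. Soft-masked repeat covered 93.5% of it, the highest share in the cluster. The 2 smallest losses thus lay at opposite ends of the methylation scale.

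The median *Cyth3* DMR was methylated to 75.5% in infant EC (quartiles 65.6% and 83.7%, range 22.5% to 94.1%) and to 29.8% in young adult EC (quartiles 20.2% and 38.7%, range 0.379% to 69.95%). The median difference was -43.3 percentage points (quartiles -47.9 and -36.7, range -58.6 to -22.1). Over all 8422 loss DMRs of the list it was -32.5 (quartiles -38.4 and -26.6). Methylation dropped by at least 30 percentage points in 46 of the 50 DMRs (92%), compared with 5152 of the 8422 loss DMRs. These were 28.1% of all listed DMRs, a share lowered by the 9911 gains, which cannot drop. A drop of at least 40 points was found in 32 *Cyth3* DMRs (64%), compared with 1712 of the 8422 loss DMRs. These were 9.34% of all listed DMRs, gains again included.

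*Cyth3* DMRs more often had a high infant level, and less often a young adult mean below 20%, than loss DMRs in general. These are shares with no test. The infant mean exceeded 70% in 31 of the 50 DMRs (62%) and in 33.6% of all loss DMRs, and it exceeded 80% in 17 (34%), compared with 15.5%. In young adult EC the mean was below 10% in 6 DMRs (12%), whereas 16.8% of all loss DMRs reached this level. It was below 20% in 13 DMRs (26%), compared with 38.1%. In young adult EC, 3 DMRs (6%) stayed above 50%, compared with 10.3% of all loss DMRs. The shares below 10% and above 50% rest on few DMRs and are not read as a difference. Across the 50 DMRs, which share libraries and a gene, infant and young adult means went together (Pearson's r 0.87, Spearman's rho 0.91), while the infant mean and the difference had a Pearson's r of -0.22 and a rho of -0.079. In the plot of infant against young adult means, the *Cyth3* DMRs spread from the lower left to the upper right, within the range of the other loss DMRs, whose differences reached -78.9 points.

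**Figure D1:**
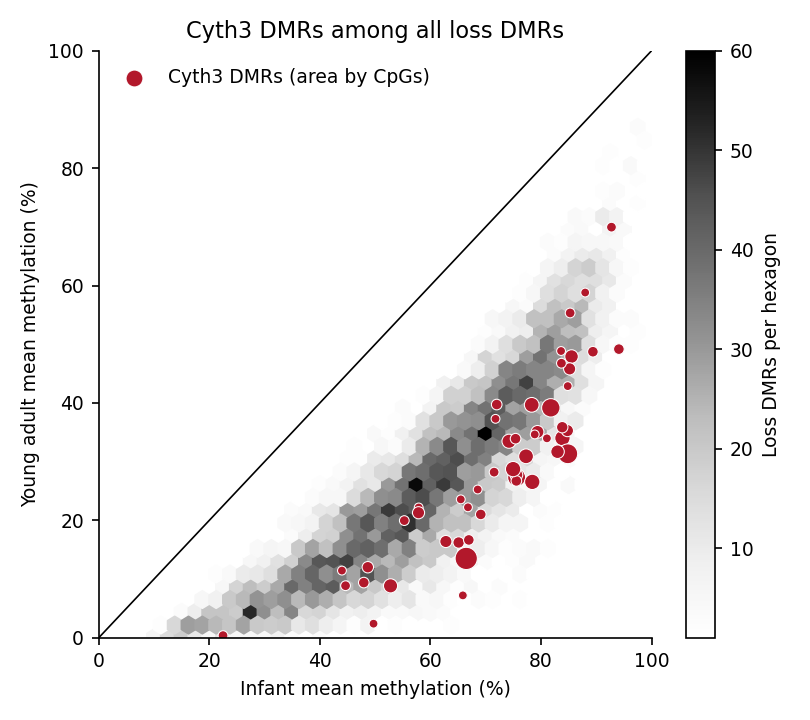
Mean methylation of DMRs in infant (x axis, %) and young adult lung EC (y axis, %). Red points are the 50 *Cyth3* DMRs with area by number of CpGs, grey hexagons count all 8422 loss DMRs, and the line marks equal methylation; every red point lies below the line and 31 have an infant mean above 70%.

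DMRs in *Cyth3* were also long. The median width was 255 bp (range 39 to 2139 bp), against 131 bp for all loss DMRs, and the median number of CpGs was 5 (range 3 to 27), against 3. At least 500 bp were covered by 14 DMRs (28%), a width reached by 3.66% of all loss DMRs. At least 10 CpGs were held by 11 DMRs (22%), compared with 2.66% of all loss DMRs, and 13 DMRs (26%) had the minimum of 3 CpGs, compared with 52.5%. The *Cyth3* DMRs held a median of 1.91 CpGs per 100 bp against 2.94 for all loss DMRs. This measure depends on width, since the minimum of 3 CpGs makes narrow DMRs dense. The GC content was similar at a median of 49.5% and 50.4%. Soft-masked repeat covered some bases of 35 DMRs (70%), compared with 44.9% of all loss DMRs, a share that can rise with width. Repeat made up more than 50% of the bases in 5 DMRs (10%), compared with 6.93% of all loss DMRs.

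The widest DMR of the entire list lay in intron 1 of *Cyth3* (chr5:143630758-143632896). It spanned 2139 bp and 27 CpGs, and its methylation went from 66.5% (infant) to 13.5% (young adult), a difference of -53.0 percentage points. The next in width among all DMRs lay in *Epas1*, which encodes the hypoxia-inducible factor HIF-2α (2118 bp, 68.9% to 13.8%), and in *Plxna1*, a semaphorin receptor gene (1889 bp, 51.9% to 6.66%). Another *Cyth3* DMR ranked 4th (chr5:143639495-143641271, 1777 bp, 21 CpGs). That region went from 84.9% to 31.4%, and its difference of -53.5 points was second only to the 75-bp DMR within the gene. A width of 1000 bp was reached by 4 *Cyth3* DMRs (8%), compared with 0.392% of all loss DMRs. The narrower of these were 1119 bp (81.8% to 39.2%) and 1022 bp wide (75.6% to 27.3%).

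In each size class the median loss in *Cyth3* exceeded that of all loss DMRs. Among DMRs of exactly 3 CpGs the median difference was -42.0 percentage points for the 13 in *Cyth3* and -30.5 for all 4420 loss DMRs of this size. With 4 to 9 CpGs the medians were -41.1 points (26 DMRs) and -34.1 points (3778 DMRs). With 10 or more CpGs they were -46.4 points (11 DMRs) and -40.5 points (224 DMRs). Within the gene, DMRs with more CpGs had larger losses (Pearson's r of CpG number and difference -0.42, Spearman's rho -0.43, 50 DMRs).

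The study had also designed a MassARRAY amplicon in this gene, a PCR product of bisulfite-treated DNA whose methylation is read by mass spectrometry. The amplicon was located here by its primers, which match bisulfite-converted DNA of the minus strand and are given 5′ to 3′ as designed, without their tags. The MassARRAY measurements were not analysed here.
Forward primer: ttggggttgttgggaaattagag
Reverse primer: aaatcaatataattcccactaattcc

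The product covered 431 bp (chr5:143630731-143631161) with 8 CpGs, and all 8 belonged to the 2139-bp DMR. Its 404 bp of overlap were 18.9% of that DMR. The amplicon thus sampled the upstream edge of the widest region and none of the other 49 DMRs.

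The gene has 2 curated starts. The RefSeq transcript NM_011182.4 has 13 exons and starts at the first base of the gene body, and NM_001163548.1 starts 28794 bp further downstream, inside intron 1 of the longer form. The 250 bases before each start are shown in the same format because the starts differ in CpG content.
Before the first start, chr5:143622197-143622446: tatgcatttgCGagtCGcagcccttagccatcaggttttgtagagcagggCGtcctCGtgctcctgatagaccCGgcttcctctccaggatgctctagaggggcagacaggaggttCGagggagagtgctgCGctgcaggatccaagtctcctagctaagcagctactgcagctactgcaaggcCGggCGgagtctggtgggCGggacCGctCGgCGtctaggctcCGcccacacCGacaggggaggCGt
Before the second start, chr5:143650991-143651240: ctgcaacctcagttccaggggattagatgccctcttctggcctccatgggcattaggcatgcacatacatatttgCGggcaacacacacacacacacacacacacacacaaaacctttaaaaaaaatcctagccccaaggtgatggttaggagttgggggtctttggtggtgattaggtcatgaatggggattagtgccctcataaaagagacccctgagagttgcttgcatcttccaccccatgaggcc

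The upstream stretch of the first start had 16 CpGs and that of the second start had 1. Within 1000 bp to either side there were 101 CpGs (5.05 per 100 bp) around the first start and 22 (1.10 per 100 bp) around the second. No DMR was listed within 1000 bp of the first start. The nearest was the 44-bp DMR that fell to 0.379%, 3114 bp downstream, and a 112-bp DMR behind it went from 49.7% to 2.41%. These had the lowest young adult means in *Cyth3*. Around the second start, the 39-bp DMR 653 bp downstream went from 44.7% to 8.88%, and a 221-bp DMR 1735 bp upstream went from 55.3% to 19.97%. The DMRs next to both starts thus began from lower infant methylation than the median of the cluster.

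By midpoint, all 50 DMRs were intronic. Intron 1 of NM_011182.4 held 45 of them (90%), while it made up 70.3% of the length of the gene and 61.9% of its CpGs. Of the 670 CpGs in intron 1, 321 (47.9%) were inside a DMR. In introns 2 to 12 together, 26 of 323 CpGs (8.05%) were inside 5 DMRs. In all exons, 1 of 89 CpGs was. That single CpG was in exon 2, of which 36 bases were covered by a 631-bp DMR centred in intron 2 (chr5:143684443-143685073, 12 CpGs, 75% to 28.7%). The list does not show whether the other CpGs failed the coverage filter or did not differ.

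**Figure D2:**
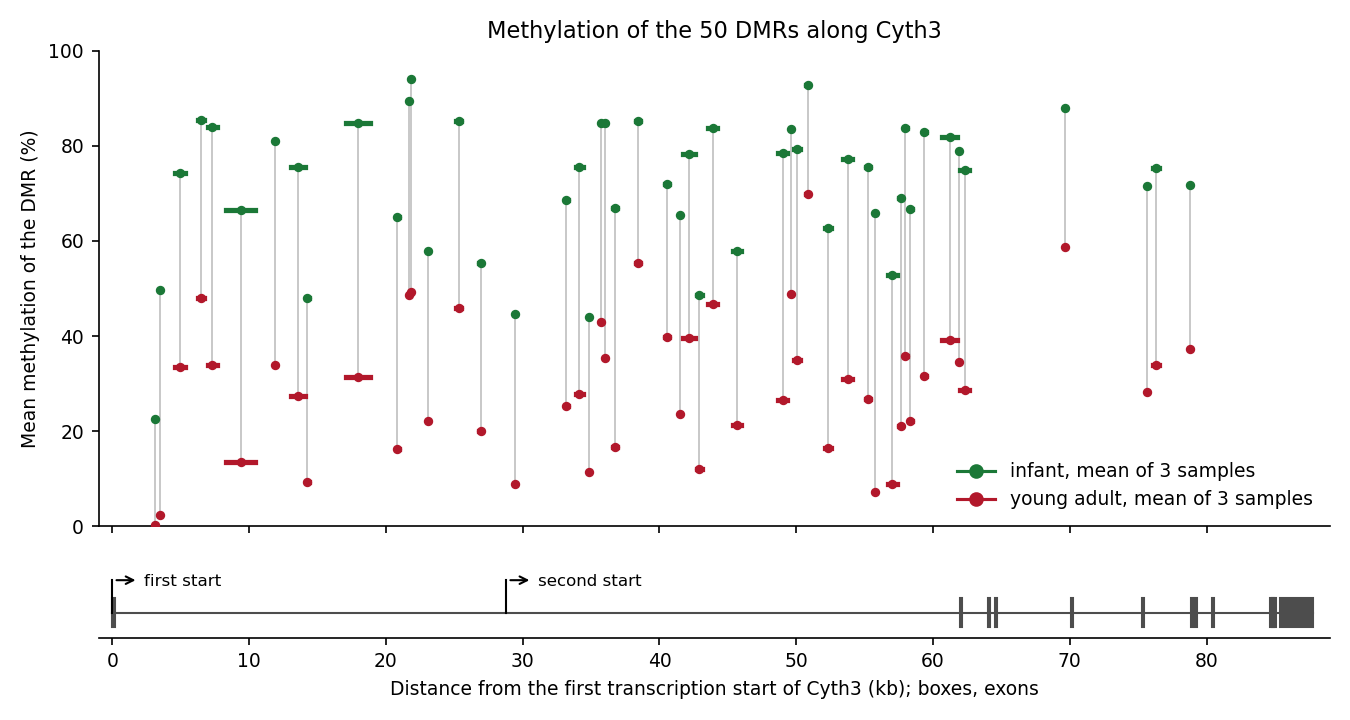
Mean methylation (y axis, %) of the 50 DMRs in infant (green) and young adult EC (red) against distance from the first transcription start of *Cyth3* (x axis, kb). Horizontal bars span the width of a DMR, grey lines join its means, and the lower track shows exons as boxes and both starts; 45 of the 50 DMRs lie in intron 1 and each red point is below its green one.

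The DMRs of intron 1 had similar median methylation on either side of the second start. Upstream of it, 16 DMRs in 28.6 kb had a median of 74.9% in infant EC, a median of 29.3% at the later age, and a median difference of -42.8 points. Downstream, 29 DMRs in 33.2 kb had medians of 75.5% and 27.8%, with a median difference of -43.9 points. The downstream part was denser, with 8.75 against 5.60 DMRs per 10 kb and 55.4% against 40.9% of its CpGs in DMRs. For the shorter transcript, 16 of the 50 DMRs were upstream of the gene and 29 were in its own intron 1.

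Coverage by DMRs was uneven along the gene. In the first 5 kb, 10 of 128 CpGs (7.81%) were in DMRs, whereas in the following 5 kb, 50 of 59 CpGs were (84.7%). From 10 to 55 kb the share per 5 kb ranged from 31.8% to 68.4%. It reached 73.2% between 55 and 60 kb, where 7 DMRs were packed ahead of exon 2, among them the one with the largest loss. After exon 2 the cluster thinned out, and in the last 20 kb 15 of 298 CpGs (5.03%) were in DMRs. Over the 50 DMRs, distance from the first start and difference had a Spearman's rho of 0.016.

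**Figure D3:**
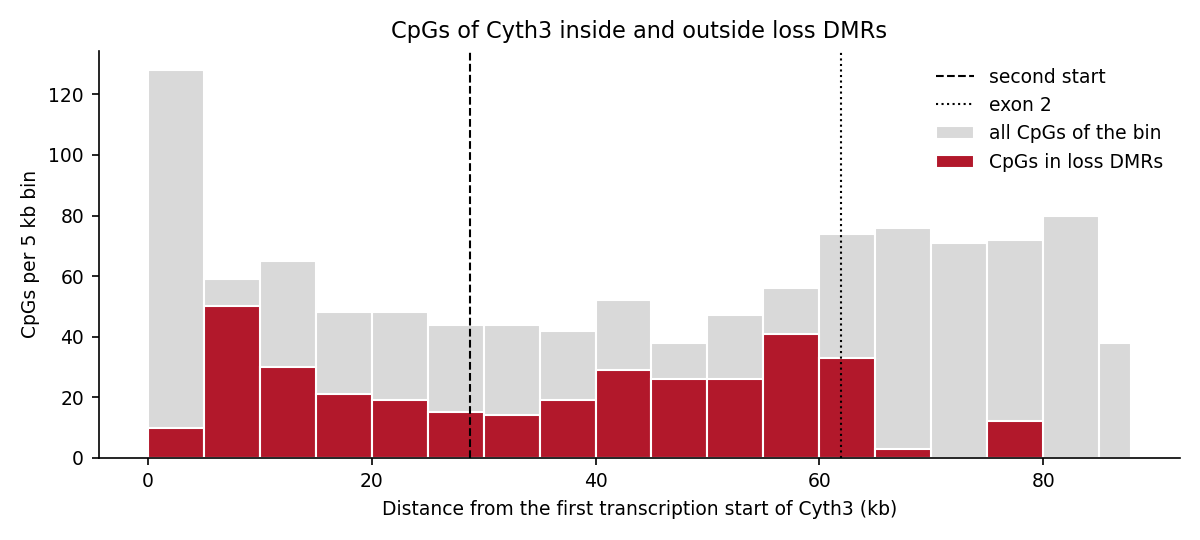
CpGs of *Cyth3* (y axis, number per 5 kb) by distance from the first transcription start (x axis, kb). Grey bars count all CpGs of the reference and red bars those inside loss DMRs, dashed and dotted lines mark the second start and exon 2; the red share is 84.7% from 5 to 10 kb and 0 between 70 and 75 kb and beyond 80 kb.

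The 5 DMRs behind intron 1 were the one across the border of exon 2, 1 in intron 4 and 3 in intron 6. The intron 4 DMR (chr5:143692070-143692128, 3 CpGs) had the third smallest loss of the gene, from 88% to 58.8%. In intron 6, the levels went from 71.5% to 28.2%, from 75.4% to 33.9% and, in the last DMR printed above, from 71.8% to 37.3%. Intron 6 had 12 of its 43 CpGs in DMRs (27.9%), and introns 3, 5 and 7 to 12 had none.

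Neighbouring DMRs in *Cyth3* were separated by a median of 805 bp (49 gaps, range 74 to 6996 bp), and 20 gaps were at most 500 bp. Over the entire list, neighbouring loss DMRs were a median of 10042 bp apart. The DMRs covered 20021 bases, 22.8% of the gene body, and 348 of its 1082 CpGs (32.2%). Joining DMRs at most 500 bp apart left 30 regions, the largest of which joined 4 DMRs over 2717 bp.

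The cluster continued upstream of the gene but not downstream. The nearest DMR outside the gene body was 4222 bp ahead of the first start (chr5:143617969-143618225, 6 CpGs) and went from 59.5% to 17.1%. Within 10 kb upstream there were 4 DMRs and within 50 kb 7, each with a loss. The first and last DMRs inside the boundary were 3114 bp after the start and 8943 bp before the end of the gene. Beyond the end, no DMR was listed for 183 kb, a stretch with 2194 CpGs. No DMR was found in *Usp42*, a ubiquitin-specific protease gene that faces *Cyth3* tail to tail 75 bp away, in *Fam220a* 57916 bp upstream or in *D130017N08Rik* 48104 bp downstream. In the authors' annotation by nearest start, 37 DMRs were given to the second and 9 to the first start of *Cyth3*, and the last 4 to *Usp42*.

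Among 4602 genes with at least 1 DMR in the gene body, *Cyth3* ranked 6th by loss DMRs. The genes ahead were *Prkce* with 65, *Smad6* with 61, *Arhgef3* with 59, *Prickle2* with 54 and *Pitpnc1* with 51, of which *Smad6* was shorter than *Cyth3* (69.0 kb). Of 49 genes with at least 20 DMRs, *Cyth3* had the largest share of its CpGs in loss DMRs (32.2%), followed by *Smad6* (27.7%), *Calcrl* (26.7%), *Tmcc2* (24.5%) and *Epas1* (24.2%). It also had the largest median difference, -43.3 points, closely followed by *Bmpr2* (-42.7), *Tmcc2* (-41.7) and *Ankrd33b* (-41.2). By loss DMRs per length *Cyth3* ranked 5th (5.69 per 10 kb). Losses without any gain were common among the genes with at least 20 DMRs and were found in 36 of the 49.

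**Figure D4:**
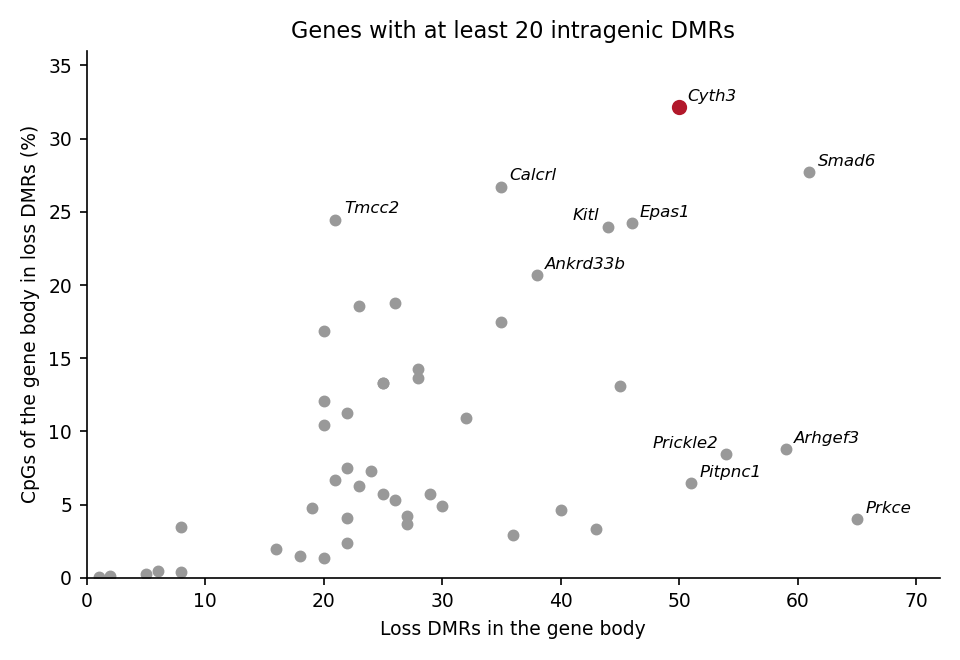
Share of the CpGs of a gene body inside loss DMRs (y axis, %) against its number of loss DMRs (x axis) for the 49 genes with at least 20 DMRs. Each point is a gene and *Cyth3* is red; with 50 loss DMRs and 32.2% it is the uppermost point.

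The genes most like *Cyth3* were sought by the distance between median infant and median young adult methylation of their DMRs, in percentage points, over the 41 other genes with at least 20 DMRs of which at least 90% were losses. *Tmcc2*, a coiled-coil protein of the endoplasmic reticulum, was closest at 2.20 points (21 DMRs, medians 73.5% and 30.8%). It was followed by *Ankrd33b* at 4.26 points (38 DMRs, 71.2% and 30.1%) and by *Arhgef12*, a guanine nucleotide exchange factor gene, at 4.85 points (24 DMRs, 70.8% and 30.9%). *Bmpr2*, a receptor of the BMP pathway, was 4.88 points away (20 DMRs, 70.6% and 30.1%), and *Klf7*, a Krüppel-like transcription factor, 6.23 points (28 DMRs, 69.3% and 28.9%). In these 5 genes all DMRs were losses, and their median infant levels were below the 75.5% of *Cyth3*. Among all genes with at least 20 DMRs, *Rcsd1* (78.8%), *Prickle1* (77.7%) and *Kitl* (76.9%) had higher median infant levels than *Cyth3*.

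The other cytohesin genes held few DMRs. *Cyth1*, a gene of nearly the same length (84.4 kb, chromosome 11), had 2 DMRs, which went from 54.5% to 18.3% and from 59.0% to 29.3%. *Cyth4*, expressed mainly in blood cells, had 1 DMR with a gain from 51.5% to 75.6%. *Cyth2* had none in its 7.68 kb.

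Of the 12 Arf exchange factors outside the cytohesins, 3 (25%) had losses and 2 (16.7%) had gains, and their median length was 93.8 kb. Of all 26182 genes, with a median length of 13.4 kb, 17.6% held a DMR, 8.46% a loss and 11.4% a gain, in all 7152 losses and 5358 gains. Per length, these exchange factors had 6.43 losses per Mb of gene body and all genes 6.705. *Iqsec1*, an Arf6 exchange factor with a calmodulin-binding IQ motif, had 5 losses with median levels of 46.8% and 21.7%. The EFA6 family members *Psd3* and *Psd4* had 2 losses with 1 gain and 1 loss (38.1% to 12.6%), and *Gbf1*, which serves the Golgi, had 1 gain (15.3% to 33.8%).

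Genes that end the Arf signal, the GTPase-activating proteins, held 43 losses and 9 gains in 9 of 21 genes (42.9%, median length 48.9 kb). Of all genes, 17.6% held a DMR. *Agap1* had 17 losses and 2 gains over 440 kb, with medians of 53.0% and 21.7%. *Acap2*, whose product acts on Arf6, had 6 losses (66.1% and 31.1%), and *Arap2* had 5 (64.0% and 28.0%). *Asap1* had 7 losses and 2 gains, *Git2* had 4 losses, *Arap3* had 2, *Acap3* had 1 (13.5% to 0.650%), *Asap2* had 1 loss and 2 gains, and *Agap3* had 3 gains. The list held 24.8 losses per Mb of gene body, compared with 6.705 for all genes. Of the 43 losses, 17 came from *Agap1* alone.

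The 7 genes of cytohesin-binding scaffolds held 20 gains and 4 losses. The same 2 of the 7 (28.6%) had both gains and losses, while 11.4% of all genes had a gain and 8.46% a loss. *Frmd4a*, a FERM-domain protein that ties cytohesins to polarity complexes, had 15 gains and 1 loss over 596 kb (medians 31.6% and 57.1%). *Frmd4b*, also known as GRSP1 and named for its binding to cytohesin 3, had 5 gains and 3 losses. The other 5 scaffolds held no DMR. Together the 7 genes had 3.56 losses per Mb of gene body, compared with 6.705 for all genes. The gains were not set against length, and 15 of the 20 came from *Frmd4a* alone. Between these lists the direction was not tested, and members differ in length.

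Phosphoinositide 3-kinases and the phosphatases that oppose them set the lipid that cytohesins bind. Of their 14 genes, 6 (42.9%, median length 68.8 kb) held DMRs, compared with 17.6% of all genes. *Pik3cb*, which encodes a catalytic subunit, had 12 losses (medians 64.6% and 31.5%), and *Pik3r1*, which encodes a regulatory subunit, had 4 (51.8% and 18.4%). *Pik3cd*, which encodes the leukocyte-enriched catalytic subunit, had 1 gain, and *Pik3r6* had 2. The phosphatase gene *Inpp5d* had 3 losses and 3 gains, and *Inpp4b* had 1 gain. The 14 genes together had 11.6 losses per Mb of gene body, compared with 6.705 for all genes.

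Over all 67 genes of these lists other than *Cyth3*, 18 (26.9%) held a loss and 13 (19.4%) a gain. Of all genes, 8.46% held a loss and 11.4% a gain. The median gene length was 49.7 kb in the lists against 13.4 kb for all genes. Per length, the 67 genes had 13.25 losses per Mb of gene body and all genes 6.705, a contrast that was not tested. The 79 loss DMRs of the 67 genes had a median difference of -34.5 percentage points, and none was wider than 546 bp. The largest loss among them, in *Pik3cb*, was -52.5 points (58.0% to 5.47%). In *Cyth3*, 50 losses had a median of -43.3 points and 14 were at least 500 bp wide.

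Short motifs of transcription factor families were counted on both strands in 200 bp around the centre of each DMR. The ETS motif AGGAAG was in 7 windows (14%), compared with 28.6% of all DMRs and 29.4% of loss DMRs. The E-box CANNTG was in 40 (80%), compared with 66.0% of all DMRs, but in windows of 100 bp it was in 38%, compared with 40.6%. In 200 bp, the GATA motif AGATAAG was in 3 windows (6%), compared with 3.36%. The forkhead motif TGTTTAC and the AP-1 motif TGANTCA were in 1 window each (2%), compared with 4.35% and 6.51%. The KLF motif CACACCC and the SOX motif ACAATGG were in no window, compared with 5.57% and 2.77%. With 50 windows these shares rest on few matches, and a match is not a bound site.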

How the data were processed

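T-WGBS libraries (3 per sample) were sequenced from sorted EC of 3 infant and 3 young adult samples. The authors trimmed adaptors, aligned reads with BWA 0.6.1 to mm10 converted in silico, removed duplicates and called methylation from bases of Phred quality 20 or more, without 9 bases at tagmented ends. They called DMRs with bsseq in R 3.2.2 (versions per the submitters' processing notes and the paper's methods), without smoothing, from CpGs with at least 8 reads in 2 of the 3 samples of a group. A DMR needed at least 3 consecutive CpGs, each with a t-test p under 0.05, and a difference of at least 10%. Per DMR, the deposited values are a mean methylation fraction for each age, averaged by the authors over CpGs and samples. A CpG below the coverage minimum could split or end a DMR.

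Here fractions were multiplied to percent, and differences are young adult minus infant. The listed positions were checked on the GRCm38 sequence: the first and last base pair of 18333 of 18333 DMRs was a CpG, and positions are printed 1-based from the first to the last of them. Exons, starts and gene bodies came from 45756 curated RefSeq transcripts of 26182 genes, and sequences from the RefSeq copy of GRCm38 (mm10). CpGs per DMR, repeats (soft-masked letters) and motifs were counted on that sequence with Python 3.11.15, pandas 2.3.3, numpy 2.4.6, pysam 0.24.0 and matplotlib 3.10.9. The counting steps were tested on simulated data. The amplicon primers were searched on chromosome 5 only and matched 1 place.

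The gene, the gene lists and the motifs were chosen with earlier results of these data known. Genes were named by rule: *Cyth3*, list genes with a DMR except 1 that is not reported here, the 5 most alike genes, and neighbours. Single DMRs named by rule were the 3 largest and 3 smallest losses, the widest, the first, the last, those touching exons and the one under the amplicon. All 68 list genes were found, 1 under an older symbol. Genes named beside ranks, widths and infant levels, *Cyth2*, *Rac1* and further single DMRs fall outside this rule and were chosen after seeing their values. Since the values used here are group means, neither the planned per-sample test nor leaving out replicates nor a replicate block could be run. The alternatives concerned how DMRs were assigned, filtered, joined and weighted, the transcript, the ranking measure, the minimum of DMRs for likeness and the motif window.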

Additional observations from a re-analysis of the deposited data

How the results depend on the processing

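Loss was the direction of every *Cyth3* DMR under each of 6 alternatives that changed how DMRs were assigned, filtered or joined. Filtering or joining the same 50 losses could give no other direction. Assignment by any overlap of 1 base gave 50 DMRs, and 10 kb on either side of the gene body gave 54, all with losses. The median difference stayed between -46.3 and -43.0 percentage points under its 5 alternatives. The number of DMRs was 46 to 54 under 4 alternatives, and it was 30 with at least 5 CpGs per DMR and also 30 when DMRs at most 500 bp apart were joined. The share in intron 1 was 58% for the transcript NM_001163548.1, because 16 DMRs lie upstream of it. Among the 49 genes with at least 20 DMRs, *Cyth3* ranked 1st by the share of CpGs in loss DMRs and 5th by loss DMRs per kb. With at least 10 DMRs per gene, 2 of the 5 most alike genes were shared, since more genes were eligible. In windows of 100 bp the E-box was in 38% of the *Cyth3* windows and in 40.6% of all windows, so that its higher share at 200 bp was not kept. The AP-1 motif was in 0% and 3.35%. No paired analysis was possible because the list holds group means only, and leave-one-out values could not be computed for the same reason. Depth per DMR is unknown and limits each statement on CpGs that are not listed.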

Other observations

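Within 100 kb upstream of the first start of *Cyth3* there were 13 DMRs, each with a loss of methylation, of which 7 lay within 50 kb. Of the 13, 5 were in *Rac1*, a small GTPase gene whose product drives lamellipodia, which is 94416 bp away from *Cyth3*. *Rac1* had 9 DMRs in its 22.6 kb, all with losses. The largest of the 5 within 100 kb went from 64.4% (infant) to 23.9% (young adult), and the one with the lowest young adult level went from 38.4% to 3.34%. *Fam220a*, between *Rac1* and *Cyth3*, held no DMR. Whether the losses on both sides of it are related was not tested.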
